A study of Homo sapiens with 4 samples.

Results

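The comparison described here sets AC16 cells kept for 360 min in doxorubicin against AC16 cells kept for 10 min in it. It was chosen by time label and uses 2 of the 4 libraries of the study, 1 at each time. AC16 is an established human line made by fusing ventricular heart cells with transformed fibroblasts, and the labels give its cell type as cardiomyocyte. At both times the serum medium had been taken off, the cells rinsed with PBS, and doxorubicin given at 10 nM in fresh serum-free DMEM. Both libraries therefore share the drug, its dose and the loss of serum, and differ in how long the cells had been under them. Time in the drug and time without serum cannot be told apart. The library at 30 min had the same treatment and is given beside the values throughout. The untreated library is in neither side of the comparison.

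Poly(A) RNA was counted over 66839 loci, of which 12118 were compared because either library reached 5 CPM, counts scaled per 1000000 counts of the library. The libraries held 55596712 deposited counts at 10 min, 55278725 at 30 min and 55156612 at 360 min. With 1 library per time there was no replicate check and no p-value, so every ratio below is between libraries and not between conditions. Ranges in parentheses are 95% intervals for the error of counting alone. A locus counted as higher or lower at 360 min when it differed at least 2-fold, reached 5 CPM in either library and had an interval that excluded 1.

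Doxorubicin is an anthracycline that slides between the bases of DNA and traps topoisomerase II on it, which leaves broken DNA. Broken DNA activates p53, which switches on genes that halt the cell cycle or start apoptosis. Serum carries growth factors, and without them the RAS and MAP kinase pathway goes quiet, FOXO factors enter the nucleus, and genes driven by E2F stay repressed by the RB family. Immediate early genes such as EGR1 and FOS are known for short bursts after a stimulus.

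The 10 min library stood apart from the other treated libraries, which bears on every value below. Against 10 min, 852 loci were higher at 360 min (7.03% of those compared) and 851 were lower (7.02%). Against 30 min, 135 of 11746 loci were higher at 360 min and 179 were lower. Between 30 and 10 min, 683 loci were higher at 30 min and 642 were lower. The SD of the log2 ratios over the loci compared was 0.75 for 360 over 10 min, 0.43 for 360 over 30 min and 0.67 for 30 over 10 min. Counts above 0 were found at 29129 loci at 10 min, 27314 at 30 min and 27353 at 360 min. Scaling to total counts in place of TMM gave 721 loci higher and 971 lower. With 1 library per time, an effect of time and a difference between libraries cannot be told apart.

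**Figure D1:**
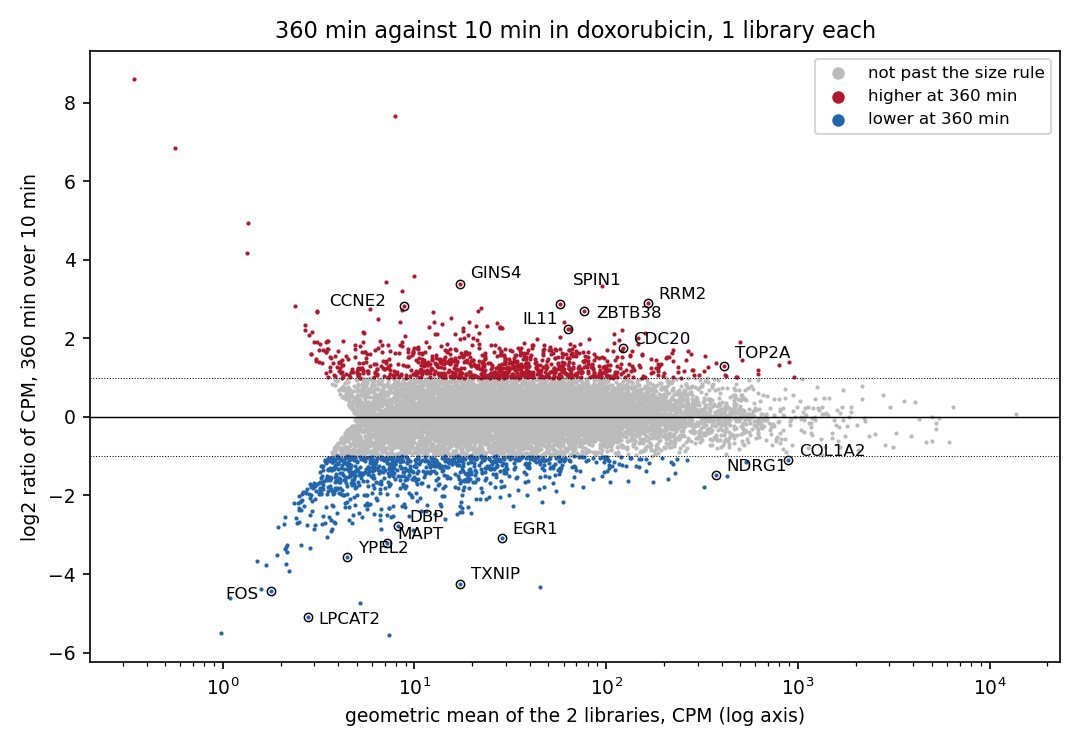
Each point is a locus that reached 5 CPM in either library and had counts in both. The x axis is the geometric mean of the 10 and 360 min CPM on a log axis and the y axis is the log2 ratio of 360 over 10 min, with dotted lines at 2-fold. Lower loci (blue) crowd at low levels, higher loci (red) reach up to levels such as that of TOP2A, and EGR1 and TXNIP are 8.44-fold and 18.9-fold lower.

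Higher and lower loci differed in kind. Of the higher loci, 650 were 2 to 3-fold apart and 32 were over 5-fold apart, and of the lower ones 568 and 79. The larger of the 2 CPM values had a median of 44.7 among higher loci and 15.8 among lower loci. Of named loci with a geometric mean under 10 CPM, 7.71% were higher and 20.9% were lower, and over 50 CPM 5.94% were higher and 2.06% were lower. Long noncoding and antisense RNAs made up 27 of the higher loci and 66 of the lower ones. Of 184 named antisense loci compared, 6.52% were higher and 20.1% lower, and of 184 long intergenic noncoding loci 4.35% and 12.5%. Of 49 loci annotated as processed transcripts, also counted among these RNAs, 8.16% were higher and 12.2% lower. For 9944 protein-coding loci the shares were 7.15% and 6.16%. The transcript model with the most counts differed between the libraries at 26.8% of the higher loci and 25.4% of the lower ones, against 23.2% of all compared loci. Low-level RNA was thus more often lower at 360 min, and its part in the lists below was not tested.

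Loci were named through annotated transcripts, and the gene lists below were read on named loci that reached 1 CPM in either library, called measured members. Over all 13566 such loci, 757 were higher (5.58%) and 709 were lower (5.23%), with a median log2 ratio of 0.03. Those shares are the background for each count that follows. CPM are not divided by transcript length, so levels are compared between libraries and never between genes.

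Genes of DNA replication were higher at 360 min almost throughout. Of 30 measured members of the list for origin licensing and the replication fork, 28 were higher and none lower, with a median log2 ratio of 1.44 against 10 min. Against 30 min the median was 0.17, and 1 member, GINS4, was higher. The summed level of the list was 1000.3 CPM at 10 min, 2406 CPM at 30 min and 2720 CPM at 360 min. Most of the distance from 10 min was thus already present in the 30 min library.

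The loaders of the replicative helicase were among them. ORC1, a subunit of the origin recognition complex, was 4.03-fold higher, and CDC6 and CDT1, which load the MCM helicase, were 3.18-fold and 2.43-fold higher. The measured helicase subunits MCM2, MCM3, MCM5, MCM6 and MCM7 were between 2.44-fold and 2.91-fold higher. MCM10, which helps start the helicase, stood at 9.42 CPM at 10 min, 36.1 at 30 min and 46.9 at 360 min, a ratio of 4.98 (4.13 to 6.04). Its levels at 30 and 360 min were close to each other and far above that at 10 min. The GINS complex, part of the moving helicase, split. GINS2 stood at 13.1, 49.0 and 62.4 CPM at 10, 30 and 360 min, a ratio of 4.78 (4.08 to 5.63). GINS4 stood at 5.32, 21.1 and 55.8 CPM, a ratio of 10.5 (8.29 to 13.5), and was also 2.64-fold higher at 360 than at 30 min. GINS4 had the top place among all higher loci with a name, but 21.2% of its exon bases are shared with a gene on the other strand, so its value is uncertain. GINS1 did not differ by the rule, at 20.6, 22 and 20.1 CPM. CLSPN, which relays stalled forks to the checkpoint kinase CHK1, stood at 12.8, 53.9 and 61.5 CPM, a ratio of 4.82 (4.10 to 5.69). PCNA, the sliding clamp of the polymerases, was 2.95-fold higher, and POLD1, the catalytic subunit of polymerase delta, had a ratio of 1.67 and did not pass.

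The supply of DNA building blocks followed in part. Of 16 measured genes of nucleotide synthesis, 7 were higher and none lower, with a median log2 ratio of 0.77 against 10 min and 0.02 against 30 min. TK1, the thymidine salvage kinase, stood at 64.2, 177 and 162 CPM at 10, 30 and 360 min, a ratio of 2.52 (2.33 to 2.72). Its 30 and 360 min libraries both lay far above that at 10 min. TYMS, thymidylate synthase, had a ratio of 2.87 (2.64 to 3.11), with 39.1% of its exon bases shared with ENOSF1 on the other strand. RRM2, the regulated subunit of ribonucleotide reductase, stood at 60.4, 325 and 449 CPM, a ratio of 7.43 (6.92 to 7.99) for its locus. That fold rests on a transcript model made by the assembly, and the summed annotated transcripts of RRM2 gave a ratio of 2.90. An overlap with another gene on the same strand covers 20.2% of the exon bases of RRM2.

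Upstream of them, the G1 list was mixed. Of 24 measured G1 cyclins, CDKs and E2F factors, 9 were higher and 2 lower, with a median log2 ratio of 0.74 against 10 min and 0.18 against 30 min. E2F1 and E2F2, activators of S phase genes, were 3.70-fold and 4.93-fold higher, and the repressors E2F7 and E2F8 were 2.43-fold and 2.42-fold higher. CCNE2, a cyclin of S phase entry, stood at 3.31, 15.8 and 23.7 CPM at 10, 30 and 360 min, a ratio of 7.16 (5.26 to 9.92). CCNE2 shares 37.0% of its exon bases with INTS8 on the other strand and is uncertain. CDC25A, the phosphatase that activates CDK2, stood at 8.30, 29.5 and 44.3 CPM, a ratio of 5.34 (4.38 to 6.56), or 2.85 as summed transcripts. RBL1, the RB relative p107, stood at 10.3, 42.3 and 45.5 CPM, a ratio of 4.43 (3.69 to 5.33). The lower members were the CDK inhibitors CDKN1C and CDKN2B, with ratios of 0.300 and 0.488, while CDKN2C, another CDK inhibitor, was 2.32-fold higher.

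Mitotic genes were higher almost throughout as well. Of 34 measured members of the list for mitosis and the kinetochore, 32 were higher and none lower, with a median log2 ratio of 1.40 against 10 min and 0.03 against 30 min. The summed level was 2190 CPM at 10 min, 5572 CPM at 30 min and 5717 CPM at 360 min. CDC20, which activates the anaphase-promoting complex, stood at 66.7, 212 and 225 CPM, a ratio of 3.37 (3.13 to 3.63). CCNB1, the mitotic cyclin B1, stood at 76.1, 240 and 245 CPM, a ratio of 3.21 (3.00 to 3.44). KIF11, the kinesin that pushes spindle poles apart, stood at 35.2, 119 and 115 CPM, a ratio of 3.26 (2.95 to 3.62). For these genes the 30 and 360 min libraries lay close together and only the 10 min library was low. ZWINT, which recruits the kinetochore motor complex, had the highest ratio of the list at 4.89 (4.16 to 5.77). CDC25B, an activator of mitotic CDK1, and SPC24, of the kinetochore NDC80 complex, did not pass, with ratios of 1.29 and 1.94.

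The promoters of these groups are shown because the members were higher together. Sequences are the 250 bases upstream of the RefSeq gene start on GRCh38.p14, 5′ to 3′ on the strand of the gene. The E2F site was searched as TTTCCCGC, TTTCGCGC, TTTGCCGC and TTTGGCGC, the NF-Y box as CCAATGG or with GA, CA or CG as its last bases, and the cell cycle homology region as TTTGAA, each on both strands. No motif of these contains another. CDC25A (chr3:48188418-48188667, minus strand) and GINS2 (chr16:85688955-85689204, minus strand) are shown for the E2F site, whose letters alone are in capitals.
CDC25A: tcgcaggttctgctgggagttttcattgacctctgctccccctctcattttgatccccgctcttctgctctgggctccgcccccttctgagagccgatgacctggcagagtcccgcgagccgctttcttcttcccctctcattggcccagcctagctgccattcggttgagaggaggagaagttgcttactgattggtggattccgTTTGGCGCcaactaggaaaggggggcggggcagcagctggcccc
GINS2: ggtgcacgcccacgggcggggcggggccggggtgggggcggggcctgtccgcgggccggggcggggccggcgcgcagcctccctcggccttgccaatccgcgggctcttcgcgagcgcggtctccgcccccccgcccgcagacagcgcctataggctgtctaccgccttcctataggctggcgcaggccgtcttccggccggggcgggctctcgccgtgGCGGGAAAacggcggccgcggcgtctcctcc
The match starts 44 bases upstream of the start of CDC25A and 31 bases upstream of that of GINS2. RRM2 (chr2:10122489-10122738, plus strand) is shown for 3 NF-Y boxes in capitals, which start 123, 93 and 66 bases upstream.
RRM2: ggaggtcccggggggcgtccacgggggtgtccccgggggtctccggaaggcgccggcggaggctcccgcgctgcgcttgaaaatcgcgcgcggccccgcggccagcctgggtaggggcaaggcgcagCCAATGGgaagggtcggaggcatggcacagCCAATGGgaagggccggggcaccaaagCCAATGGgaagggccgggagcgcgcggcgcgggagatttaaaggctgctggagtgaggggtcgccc
CDC20 (chr1:43358731-43358980, plus strand) and KIF11 (chr10:92592880-92593129, plus strand) are shown for the NF-Y box and the cell cycle homology region of mitotic genes, both in capitals.
CDC20: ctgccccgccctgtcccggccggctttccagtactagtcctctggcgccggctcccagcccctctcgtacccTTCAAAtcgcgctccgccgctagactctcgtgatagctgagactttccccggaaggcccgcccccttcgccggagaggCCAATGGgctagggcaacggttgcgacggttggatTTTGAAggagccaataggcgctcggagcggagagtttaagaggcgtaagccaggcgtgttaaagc
KIF11: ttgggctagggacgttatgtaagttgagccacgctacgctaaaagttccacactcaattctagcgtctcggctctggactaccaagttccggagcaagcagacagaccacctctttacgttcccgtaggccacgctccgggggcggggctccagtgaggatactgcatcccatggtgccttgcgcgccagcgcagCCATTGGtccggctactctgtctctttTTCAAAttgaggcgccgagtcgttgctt
In CDC20 the NF-Y box starts 100 bases upstream and the homology region matches 178 and 65 bases upstream. In KIF11 they start 55 and 28 bases upstream. A match describes the letters and is neither a bound site nor a cause.

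These letters were unevenly spread over the lists. The E2F site was present in 2.79% of all 27305 promoters of that length, 4.68% of those of named loci with at least 5 CPM, 9.27% of those of higher loci and 3.6% of those of lower loci. Among the replication genes it was present in 12 of 30 promoters, and among the mitotic genes in 1 of 30. The cell cycle homology region was present in 13.6% of all promoters, 8.28% of those of named loci with at least 5 CPM, 14.1% of those of higher loci, 9.2% of those of lower loci, in 14 of 30 promoters of mitotic genes and in 0 of 30 of replication genes. NF-Y boxes were present in 16.3% of all promoters, 22.3% of those of named loci with at least 5 CPM, 30.1% of those of higher loci, 21.6% of those of lower loci, 43.3% of those of replication genes and 56.7% of those of mitotic genes. The higher loci include most members of both lists, so their shares are not separate observations. In all, 16 promoters were searched and 7 are printed, chosen after the matches were seen. MCM10, CLSPN and RRM2 have no match to the E2F letters in this window, and CCNB1 has none to the homology region.

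**Figure D2:**
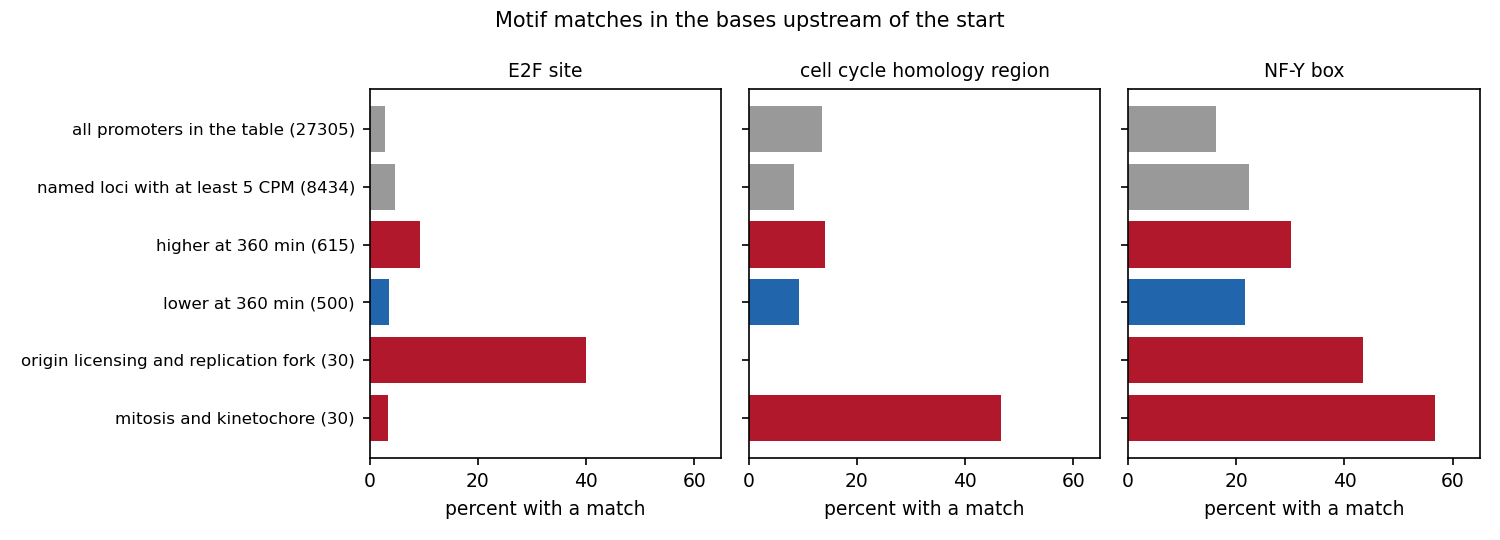
Bars give the percent of promoters with at least 1 match, on either strand, in the 250 bases upstream of the start, with the number of promoters in parentheses and axes from 0. Red bars are loci higher at 360 min and the cell cycle lists, blue bars are lower loci and grey bars are backgrounds, and 40.0% of replication promoters hold an E2F site against 2.79% of all promoters.

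Many DNA repair genes were higher, and few p53 targets passed the rule. Of 28 measured genes of DNA break repair and the damage checkpoint, 12 were higher and none lower, and 4 had ratios below 1, with a median log2 ratio of 0.88 against 10 min and 0.05 against 30 min. The 12 include genes of homologous recombination, a repair route that copies a sister chromatid. BRCA2, a mediator of homologous recombination, stood at 7.78, 31.2 and 33.7 CPM at 10, 30 and 360 min, a ratio of 4.33 (3.51 to 5.37). BLM, a helicase that unwinds recombination intermediates, stood at 6.21, 21.4 and 26.7 CPM, a ratio of 4.30 (3.40 to 5.48). Both were at 30 min close to their level at 360 min. H2AX, the histone phosphorylated at breaks, had a ratio of 3.28 (3.05 to 3.53). XRCC2, another recombination factor, had a locus ratio of 3.24 (2.81 to 3.76), but its summed annotated transcripts gave 1.70 and did not pass the rule.

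Of 31 measured p53 targets, 1 was higher and 2 were lower, with a median log2 ratio of -0.18 against 10 min and -0.20 against 30 min. CDKN1A, the CDK inhibitor p21 and the best-known target, stood at 261, 278 and 204 CPM at 10, 30 and 360 min, a ratio of 0.782 (0.745 to 0.822). MDM2, the ubiquitin ligase that p53 switches on against itself, had no locus of its own. Its summed transcripts stood at 61.7, 114 and 82.3 CPM, a ratio of 1.34 (1.21 to 1.47). Neither of these passed the rule. PPM1D, a phosphatase that ends damage signals, was higher with a ratio of 2.02 (1.65 to 2.49), or log2 0.96 and short of the rule when scaled to total counts. GDF15, a secreted stress factor, stood at 15.3, 15.0 and 6.50 CPM and was 2.36-fold lower (1.84 to 3.05). CCNG1, cyclin G1, stood at 62.8, 35.2 and 31.3 CPM and was 2.01-fold lower (1.79 to 2.26). AEN, an apoptosis nuclease, had a ratio of 1.93, and BBC3, the BH3 protein PUMA, one of 0.548, without passing.

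Among the topoisomerases, of which the drug traps topoisomerase II, only TOP2A passed the rule. TOP2A, the isoform of dividing cells, stood at 265, 613 and 647 CPM at 10, 30 and 360 min, a ratio of 2.44 (2.35 to 2.54). TOP2B, the isoform of resting cells, was read from summed transcripts at 177, 190 and 193 CPM, a ratio of 1.09 (1.02 to 1.15). TOP1, which nicks a lone strand, stood at 97.6, 116 and 142 CPM, a ratio of 1.46 (1.36 to 1.56). TOP2A is also a member of the mitotic list. All 7 measured genes for topoisomerases and tyrosyl-DNA phosphodiesterases had ratios above 1, with a median log2 ratio of 0.54 against 10 min and 0.18 against 30 min.

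Many genes of ribosome building were higher at 360 min, and among the lists with 7 or more higher members this one had the largest median against 30 min. Of 26 measured members, 13 were higher and none lower, and all 26 ratios were above 1. The median log2 ratio was 1.06 against 10 min and 0.39 against 30 min, with no member past the rule in the latter. The summed level was 2380 CPM at 10 min, 3653 CPM at 30 min and 4603 CPM at 360 min. UTP20, a scaffold of the small subunit processome, stood at 37.1, 60.1 and 96.6 CPM, a ratio of 2.61 (2.36 to 2.89). RRP12, a factor for the export of ribosomal subunits, stood at 33.1, 70.8 and 95.6 CPM, a ratio of 2.89 (2.60 to 3.21). The summed annotated transcripts of RRP12 gave a ratio of 4.26. In both UTP20 and RRP12 the 3 libraries followed the order of time. NCL, nucleolin, was 2.31-fold higher and DKC1, the pseudouridine synthase dyskerin, was 2.32-fold higher. POLR1C, a subunit of RNA polymerases I and III, had a ratio of 2.66 (2.18 to 3.27). POLR1G, of RNA polymerase I, had a ratio of 5.76 (4.6 to 7.26) and shares 43.5% of its exon bases with ERCC1 on the other strand.

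The ribosomal proteins themselves did not move with the factors that assemble them. Of 26 measured cytosolic ribosomal proteins, none passed the rule in either direction, and the median log2 ratio was -0.02. These genes have many near-identical copies in the genome, so their counts are uncertain. In the MYC network, whose targets include many of these genes, 0 of 9 measured members were higher and 2 were lower, with a median log2 ratio of -0.55 against 10 min and -0.09 against 30 min. Summed annotated transcripts gave this list a median of -1.26 against 10 min. MYC stood at 64.6, 85.2 and 37.6 CPM at 10, 30 and 360 min, a ratio of 0.582 (0.522 to 0.649) that did not pass. The summed annotated transcripts of MYC gave 0.353, past 2-fold, but held only 5.82 CPM at 10 min and 2.055 CPM at 360 min. At the MYC locus a model made by the assembly held the most counts in both libraries, so 0.353 describes a small part of them. MXI1, which competes with MYC for its partner MAX, stood at 41.1, 30.8 and 7.68 CPM and was 5.36-fold lower (4.35 to 6.66). MXD4, another such competitor, stood at 90.01, 44.4 and 38.3 CPM and was 2.35-fold lower (2.12 to 2.61).

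Some chaperones and 2 proteasome genes were higher. Of 17 measured heat shock proteins and cytosolic chaperones, 7 were higher and none lower, with all 17 ratios above 1 and a median log2 ratio of 0.93 against 10 min and 0.10 against 30 min. HSPH1, an HSP110 exchange factor, stood at 89.7, 207 and 266 CPM at 10, 30 and 360 min, a ratio of 2.97 (2.79 to 3.17). HSP90AA1, the inducible HSP90, stood at 501, 1258 and 1259.5 CPM, a ratio of 2.51 (2.44 to 2.58). HSP90AA1 was level between 30 and 360 min, while HSPH1 was somewhat higher at 360 min. DNAJA1, an HSP40 co-chaperone, had a ratio of 2.57 (2.43 to 2.72). The chaperonin subunits CCT2, CCT3 and CCT5 were 2.17-fold, 2.06-fold and 2.29-fold higher. Of 18 measured proteasome genes, PSME3 and PSMD11 were higher, with ratios of 4.70 (4.23 to 5.24) and 2.20 (2.05 to 2.36), and the median log2 ratio was 0.63 against 10 min and 0.04 against 30 min.

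**Figure D3:**
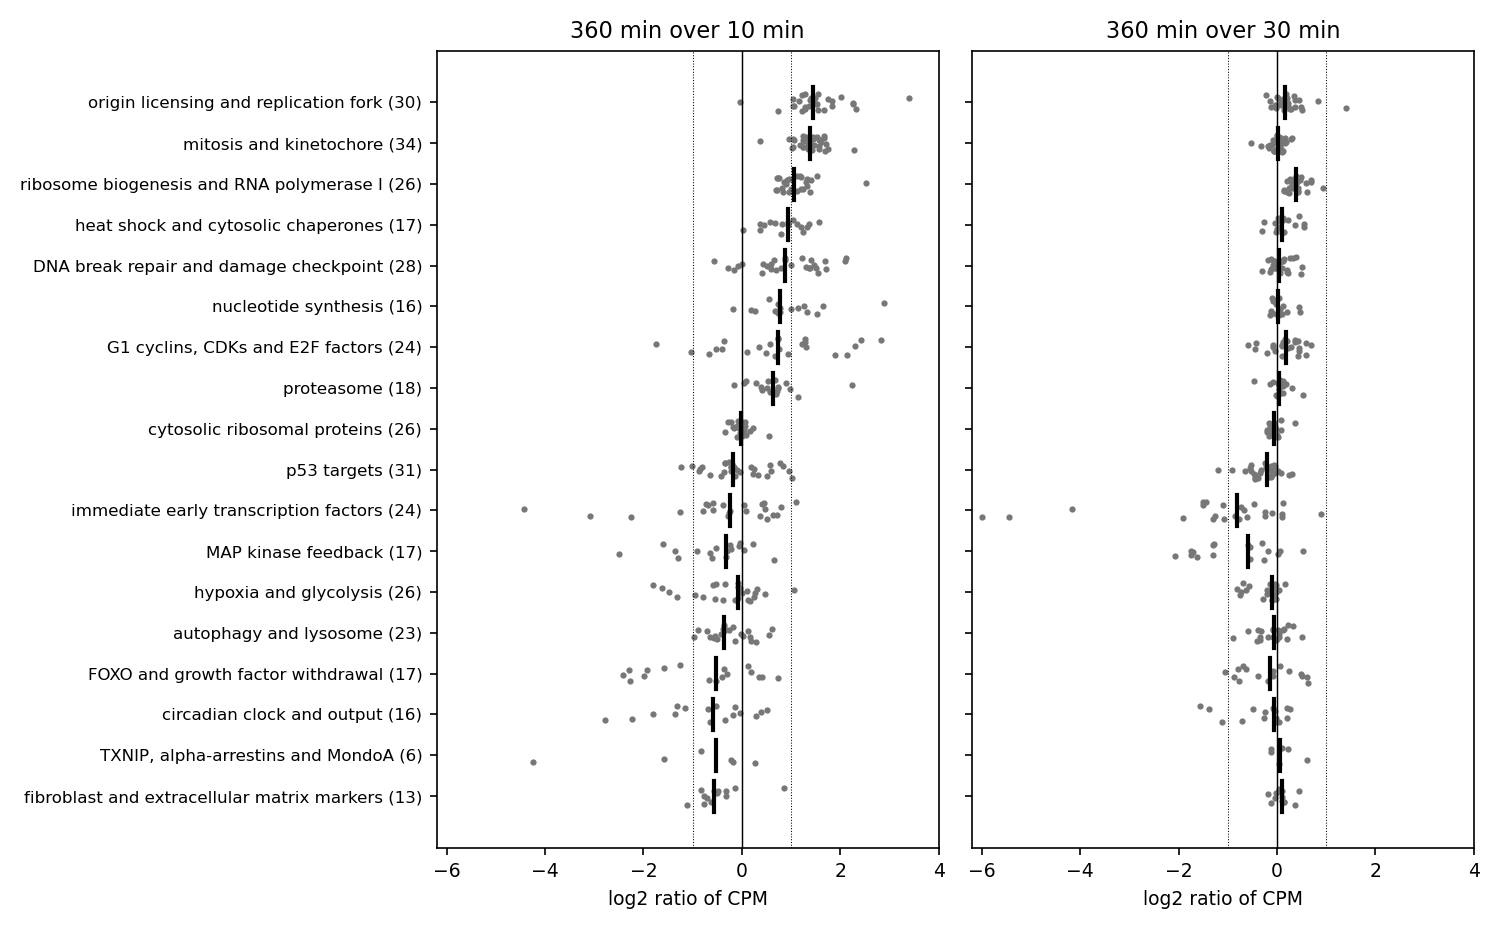
Each grey point is a measured member of the list at its left, with the number of members in parentheses, and the black bar is the median. The x axes give the log2 ratio of CPM for 360 over 10 min and for 360 over 30 min, with dotted lines at 2-fold. Replication and mitosis have medians of 1.44 and 1.40 in the left panel and 0.17 and 0.03 in the right panel, while the immediate early list goes from -0.25 to -0.82.

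Immediate early genes formed the group in which 360 min lay furthest below 30 min. Of 24 measured immediate early transcription factors, 1 was higher and 3 were lower than at 10 min, with a median log2 ratio of -0.25. Against 30 min, 8 were lower and the median was -0.82. EGR1, a zinc finger factor switched on through SRF and ELK1, stood at 83.2 CPM at 10 min, 430 CPM at 30 min and 9.86 CPM at 360 min. It was 8.44-fold lower at 360 than at 10 min (7.06 to 10.2) and 43.6-fold lower than at 30 min. FOS, the partner of JUN in AP-1, stood at 8.32, 24.4 and 0.385 CPM, 21.6-fold lower at 360 than at 10 min (9.18 to 65.5) and 63.5-fold lower than at 30 min. The highest of the 3 libraries was that at 30 min for both. JUNB, another AP-1 member, stood at 105, 124 and 43.9 CPM and was 2.39-fold lower (2.18 to 2.64), with 14.2% of its exon bases shared with HOOK2. MAFK, a small MAF protein, stood at 44.9, 52.1 and 96.5 CPM, a ratio of 2.15 (1.95 to 2.36), with 18.1% of its exon bases shared with TMEM184A.

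The EGR1 promoter (chr5:138465229-138465478, plus strand) is shown for its CArG boxes, which SRF binds, and for the core of the cAMP response element, TGACGT on either strand, both in capitals.
EGR1: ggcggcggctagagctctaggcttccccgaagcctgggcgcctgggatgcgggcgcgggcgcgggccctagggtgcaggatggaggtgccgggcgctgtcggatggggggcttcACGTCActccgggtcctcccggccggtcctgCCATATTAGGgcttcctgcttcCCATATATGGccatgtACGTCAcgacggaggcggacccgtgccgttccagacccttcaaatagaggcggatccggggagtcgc
The CArG boxes start 105 and 83 bases upstream and the cores start 136 and 67 bases upstream, with no overlap between them. CArG boxes were present in 1.14% of all promoters and 1.02% of those of named loci with at least 5 CPM, and the core in 7.42% and 11.1%.

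A few inhibitors that MAP kinase signalling induces against itself were lower too. Of 17 measured genes of MAP kinase feedback, 3 were lower and none higher than at 10 min, and 3 had ratios above 1, with a median log2 ratio of -0.31. Against 30 min, 6 were lower and the median was -0.60. SPRY2, a Sprouty inhibitor of receptor signalling, stood at 9.69, 16.5 and 3.94 CPM at 10, 30 and 360 min and was 2.46-fold lower (1.78 to 3.44). SPRED3, of the related SPRED group, stood at 11.9, 11.4 and 4.65 CPM and was 2.56-fold lower (1.91 to 3.47). DUSP6, a phosphatase of ERK, stood at 7.55, 8.18 and 2.49 CPM and was 3.03-fold lower (2.04 to 4.6), with 40.5% of its exon bases shared with another gene. In all 3 the lowest library was that at 360 min. ZFP36, which hastens the decay of AU-rich mRNAs, stood at 22.7, 13.5 and 9.31 CPM and was 2.43-fold lower (1.98 to 3.01), the only one of 9 mRNA decay adaptors past the rule.

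Of 11 measured NF-kB and cytokine genes, 3 were higher and none lower than at 10 min, with a median log2 ratio of 0.39 that turned to -0.41 against 30 min. IL11, a cytokine of the IL-6 family, stood at 29.1, 79.4 and 139 CPM at 10, 30 and 360 min, a ratio of 4.77 (4.29 to 5.32). IL11 thus followed the order of time. NFKB1 and RELB, subunits of NF-kB, had ratios of 2.16 (1.91 to 2.44) and 2.07 (1.74 to 2.46). RELB came to log2 0.99, short of the rule, when scaled to total counts. Of 17 measured SRF and YAP targets none passed the rule, and of 15 measured TGF-beta and BMP targets ID2 was higher with a ratio of 2.77 (2.23 to 3.46) and LTBP2 was 2.24-fold lower (1.98 to 2.55).

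Some genes of growth factor withdrawal were lower at 360 min, and both libraries lacked serum. Of 17 measured genes of the FOXO and growth factor withdrawal list, 6 were lower and none higher, and 5 had ratios above 1, with a median log2 ratio of -0.52 against 10 min and -0.13 against 30 min. TRIB2, a pseudokinase, stood at 42.2, 9.78 and 8.65 CPM at 10, 30 and 360 min and was 4.88-fold lower (4.0 to 6.0). BCL6, a repressor and FOXO target, stood at 61.8, 20.5 and 15.7 CPM and was 3.94-fold lower (3.39 to 4.6). FOXO4, a FOXO factor itself, stood at 18.2, 9.94 and 4.78 CPM and was 3.80-fold lower (2.89 to 5.06). KLHL24, an adaptor of a ubiquitin ligase, was 4.86-fold lower (3.63 to 6.61), and the other 2 were PIK3IP1 and CCNG2, with ratios of 0.336 and 0.419. In TRIB2 the drop lay between 10 and 30 min, and in FOXO4 the 360 min library was lower again.

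TXNIP, which inhibits thioredoxin and glucose uptake, stood at 75.6 CPM at 10 min, 3.73 CPM at 30 min and 3.99 CPM at 360 min. It was 18.9-fold lower at 360 than at 10 min (14.4 to 25.3) and did not differ from 30 min by the rule, with a ratio of 1.07. ARRDC4, an alpha-arrestin regulated with TXNIP by MondoA, stood at 13.7, 5.03 and 4.6 CPM and was 2.98-fold lower (2.23 to 4.03). Both had reached their level of 360 min in the 30 min library. TXNIP and ARRDC4 were the members past the rule among 6 measured, whose median log2 ratio was -0.53 against 10 min and 0.07 against 30 min. YPEL2, a small zinc-binding protein, stood at 15.4, 1.61 and 1.30 CPM and was 11.8-fold lower (7.29 to 20.4). The other measured YPEL genes included YPEL3 and YPEL5, with ratios of 0.526 and 0.552.

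The TXNIP promoter (chr1:145996580-145996829, minus strand) is shown for CACGAG, the core of its carbohydrate response element, for the FOXO site GTAAACA and for the NF-Y box, all in capitals.
TXNIP: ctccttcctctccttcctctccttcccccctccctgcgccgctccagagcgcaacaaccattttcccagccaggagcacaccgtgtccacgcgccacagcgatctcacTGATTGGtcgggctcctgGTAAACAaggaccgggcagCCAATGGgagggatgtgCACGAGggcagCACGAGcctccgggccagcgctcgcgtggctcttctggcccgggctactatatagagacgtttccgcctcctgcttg
CACGAG starts 88 and 77 bases upstream, the FOXO site 124 bases upstream and the NF-Y boxes 142 and 105 bases upstream, with no overlap. CACGAG was present in 5.62% of all promoters, 7.32% of those of named loci with at least 5 CPM, 6.99% of those of higher loci and 6.6% of those of lower loci. The FOXO site was present in 2.98%, 2.09%, 1.63% and 4.00% of the same groups. ARRDC4 and YPEL2 have no match to either motif in this window.

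Several circadian output genes were lower as well. Of 16 measured circadian genes, 5 were lower and none higher, and 3 had ratios above 1, with a median log2 ratio of -0.58 against 10 min and -0.07 against 30 min. DBP, a PAR bZIP factor driven by the CLOCK complex, stood at 21.6, 5.13 and 3.15 CPM at 10, 30 and 360 min and was 6.86-fold lower (4.97 to 9.67), with 10.1% of its exon bases shared with SPHK2. TEF, a relative of DBP, stood at 26.3, 22.2 and 7.51 CPM and was 3.50-fold lower (2.81 to 4.40). NR1D1, the clock repressor REV-ERB alpha, stood at 25.1, 14 and 5.35 CPM and was 4.70-fold lower (3.65 to 6.13). All 3 were lowest at 360 min, but DBP was low at 30 min and TEF was not. RORA, which competes with NR1D1, was 2.56-fold lower (1.97 to 3.37), and PER3, a period gene, had a ratio of 0.403.

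Hypoxia genes split. Of 26 measured genes of hypoxia and glycolysis, 4 were lower and 1 was higher, with a median log2 ratio of -0.08. NDRG1, a hypoxia-induced stress protein, stood at 628, 380 and 225 CPM at 10, 30 and 360 min and was 2.79-fold lower (2.68 to 2.91). EGLN3, a prolyl hydroxylase that marks HIF for decay, stood at 68.5, 39.1 and 22.2 CPM and was 3.09-fold lower (2.71 to 3.53). Both followed the order of time downward. ALDOC, a glycolytic aldolase, was 3.47-fold lower (3.16 to 3.82), with 10.1% of its exon bases shared with another gene, and SLC2A3, the glucose transporter GLUT3, was 2.48-fold lower (2.21 to 2.79). EGLN1, the relative of EGLN3, was 2.08-fold higher.

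**Figure D4:**
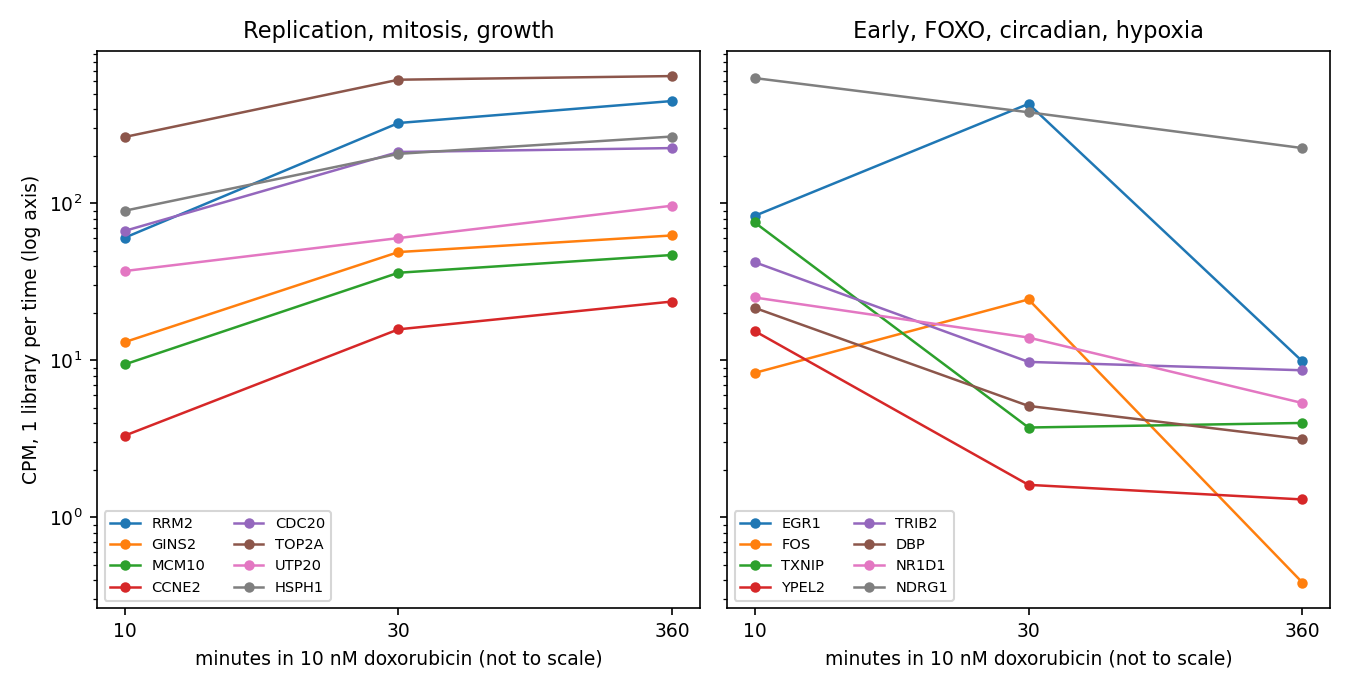
Points give the CPM of 1 library at each time on a log axis, joined per gene, with the times evenly spaced. In the left panel RRM2, CDC20 and TOP2A stand low at 10 min and near their 360 min level at 30 min, and in the right panel EGR1 and FOS peak at 30 min while TXNIP drops from 75.6 to 3.73 CPM by 30 min.

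Other lists moved little. Of 23 measured autophagy and lysosome genes none passed the rule, with a median log2 ratio of -0.36 against 10 min and -0.07 against 30 min. CTSB, the lysosomal protease cathepsin B, came nearest at 1881, 959 and 954 CPM at 10, 30 and 360 min, a ratio of 0.507 (0.496 to 0.518), or log2 -1.04 and past 2-fold when scaled to total counts. The 24 measured cholesterol and fatty acid genes had a median log2 ratio of -0.21 against 10 min and 0.11 against 30 min. Of 22 nuclear respiratory chain genes, CYCS, cytochrome c, was higher with a ratio of 2.30 (2.20 to 2.41), and the median was 0.21. No gene of the mitochondrial genome passed, with a median of 0.07 over 10 genes. Of 16 NRF2 and antioxidant genes, KEAP1, the inhibitor of NRF2, was higher at a ratio of 2.02 (1.82 to 2.23), short of the rule when scaled to total counts at log2 0.95, and the median was 0.14. Of 24 genes of the integrated stress and unfolded protein responses, ATF5 was higher with a ratio of 6.43 (4.99 to 8.39), or 3.59 as summed transcripts, and the median was 0.13. ATF5, a bZIP factor, shares 21.2% of its exon bases with NUP62. Of 21 importins, exportins and tRNA synthetases, KPNA6 and KPNA2, both importin alphas, were higher, and the median of 0.32 turned to -0.07 against 30 min.

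Of 21 measured genes of the BCL2 family and apoptosis, 1 was higher and 2 were lower, with a median log2 ratio of 0.24. BMF, a BH3 protein that promotes apoptosis, stood at 33.6, 9.72 and 9.78 CPM at 10, 30 and 360 min and was 3.44-fold lower (2.83 to 4.20). BCL2L11, the BH3 protein BIM, stood at 7.06, 10.8 and 2.36 CPM and was 2.99-fold lower (1.99 to 4.59), with 10.9% of its exon bases shared with MIR4435-2HG. CFLAR, which blocks caspase 8, stood at 10.5, 21.4 and 31.3 CPM, a ratio of 2.97 (2.46 to 3.61). BMF was already low at 30 min, BCL2L11 was low only at 360 min and CFLAR followed the order of time.

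Histone genes differed by kind. H2AZ1, a replication-independent variant with a poly(A) tail, stood at 149, 582 and 479 CPM at 10, 30 and 360 min, a ratio of 3.21 (3.06 to 3.37). H2AC6 and H2BC5 were 3.24-fold (2.51 to 4.22) and 3.09-fold lower (2.25 to 4.31). The 14 measured histone genes had a median log2 ratio of 0.00. Most histone mRNAs lack a poly(A) tail, and the RNA was selected on poly(dT) beads.

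Among the 12 top higher named loci were also genes outside the lists. SPIN1, a reader of histone methylation, stood at 21.1, 130 and 157 CPM at 10, 30 and 360 min, a ratio of 7.41 (6.57 to 8.39). GCNT1, a glycosyltransferase of mucin cores, stood at 8.51, 18.0 and 57.9 CPM, a ratio of 6.81 (5.62 to 8.30). TSN, the nucleic acid binding protein translin, stood at 8.44, 16.6 and 55 CPM, a ratio of 6.51 (5.37 to 7.96). SPIN1 was already high at 30 min, whereas GCNT1 and TSN were over 3-fold higher at 360 than at 30 min. KPNA6 stood at 25.9, 72.9 and 138 CPM, a ratio of 5.34 (4.77 to 5.98), and RTKN2 at 2.27, 16.2 and 15.2 CPM, a ratio of 6.70 (4.61 to 10.0). ZBTB38, a reader of methylated DNA, had a ratio of 6.45 (5.83 to 7.16) as a locus and 26.5 as summed transcripts, and LINC01224, a long noncoding RNA, 6.58 (4.84 to 9.11) and 11. The sizes of those folds thus depend on which models are counted. The transcript model with the most counts differed between the 10 and 360 min libraries in GCNT1, TSN, KPNA6, ZBTB38 and LINC01224. It also differed in GINS4, RRM2, CCNE2, ATF5 and POLR1G of the same 12, and all these values are less certain. In SPIN1 and RTKN2 the leading model was the same.

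LPCAT2, an enzyme that remodels phospholipids, led the lower loci at 16.4, 10.6 and 0.476 CPM, 34.4-fold lower at 360 than at 10 min (16.0 to 90.3). It was also 22.3-fold lower at 360 than at 30 min, so that its drop lay after 30 min. MAPT, the microtubule protein tau, stood at 22, 5.13 and 2.36 CPM and was 9.33-fold lower (6.48 to 13.8), or 5.75-fold as summed transcripts. GBP2, an interferon-induced GTPase, stood at 46.0, 14.5 and 8.39 CPM and was 5.48-fold lower (4.49 to 6.75). ITGAX, an integrin of myeloid cells, stood at 39.2, 6.99 and 7.02 CPM and was 5.58-fold lower (4.49 to 7.01). JRK and CACNG7 were 6.01-fold (4.74 to 7.70) and 5.35-fold lower (4.33 to 6.67). The leading transcript model differed between the 10 and 360 min libraries in MAPT, GBP2, JRK, DBP and MXI1, so their values are less certain. It also differed in list genes such as MCM10, CDC25A, XRCC2, RRP12, PSME3 and KPNA2. The same held for FOS, ID2, NDRG1, BCL2L11, YPEL5 and FN1, and all these values are less certain too. MSC-AS1, an antisense RNA, was 7.17-fold lower (5.01 to 10.6) and is uncertain because strand was not recorded.

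Markers of cell type moved beside these groups. Of 13 measured fibroblast and extracellular matrix markers, 1 was lower and none higher, but 12 ratios were below 1 and the median log2 ratio was -0.56 against 10 min and 0.09 against 30 min. The summed level of the list was 23696 CPM at 10 min, 15151 CPM at 30 min and 15755 CPM at 360 min. COL1A2, a chain of type I collagen, stood at 1308 CPM at 10 min, 603 at 30 min and 607 at 360 min and was 2.16-fold lower (2.10 to 2.21). FN1, fibronectin, had a ratio of 0.562 (0.553 to 0.572) without passing. In bulk RNA fewer cells of a type and less RNA per cell cannot be told apart. The part of the matrix genes in the other results was not tested.

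Few defining markers of the labelled cell type, cardiomyocyte, were measured. Of 22 cardiomyocyte markers, 7 were measured, 11 were under 1 CPM in both libraries and 4 had no named locus. ACTC1, cardiac actin, and MYBPC3, of the sarcomere, were at 0 counts in both. The ventricular light chain MYL2 stood at 42.6, 42.6 and 41.0 CPM at 10, 30 and 360 min, and NPPB, the natriuretic peptide of stressed heart muscle, at 54.6, 124 and 62.1 CPM. NKX2-5, a cardiac transcription factor, was the member past the rule, at 10.1, 24.4 and 20.5 CPM and a ratio of 2.04 (1.66 to 2.51), or log2 0.97 and short of the rule when scaled to total counts. The summed markers of endothelium ranged from 20.5 to 41.9 CPM over the 3 libraries, those of immune cells from 8.28 to 18.3 CPM and those of epithelium from 476 to 539 CPM, the first 2 highest at 10 min. Of 4 measured endothelial markers, 2 had ratios above 1 and 2 below, and 1 passed the rule. This was TIE1, 2.59-fold lower (2.14 to 3.14), which held 28.8 of the 41.9 CPM of endothelium at 10 min. All 4 measured immune markers had ratios below 1, and CD3D, of T cells, passed at 2.44-fold lower (1.62 to 3.75). Of 4 measured epithelial markers 2 had ratios above 1 and 2 below, and none passed. KRT8 and KRT18 held 299 and 166 of the 476 CPM of epithelium at 10 min. Of the 10 epithelial markers, 6 were under 1 CPM at both 10 and 360 min.

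Signs of RNA quality were read the same way. MALAT1 and NEAT1, RNAs kept in the nucleus, had ratios of 0.579 (0.545 to 0.615) and 0.571 (0.533 to 0.610). The list of nuclear-retained and detained-intron RNA had none of 13 measured members past the rule and a median log2 ratio of -0.15, and 8 host genes of small nucleolar RNAs had a median of -0.17. By the length of the longest annotated transcript, the median log2 ratio was 0.14 in the shortest group of named loci, 0.11 in the middle group and 0.03 in the longest group. Those groups each held 3561 to 3563 loci. The part of these values in the list results was not tested.

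Within genes, the deposited split among annotated transcripts often differed between the libraries. Of 2816 genes with at least 50 CPM at both times and less than 1.5-fold apart, the largest difference in the share of a transcript was over 10 points in 973, over 20 points in 570 and over 50 points in 166, with a median of 5.12 points. The 8 genes with the largest differences had near-complete exchanges. The share of DCTN4-203, a transcript of a dynactin subunit, was 0.263% at 10 min, 0.0864% at 30 min and 98.2% at 360 min. That of WDR1-204, of an actin disassembly factor, was 95.3%, 53% and 0.264%. That of IGF1R-201, of the receptor for insulin-like growth factor 1, was 3.59%, 47.1% and 95.4%, with 219, 85.7 and 193 CPM in all its annotated transcripts. In WDR1 and IGF1R the 30 min library lay between the others, and in DCTN4 it lay with 10 min. DDAH1-201, of an enzyme that clears a nitric oxide synthase inhibitor, had 94.2%, 3.76% and 1.86%, and PRAG1-202 had 92.8%, 0.0591% and 0.0402%, with the 30 min library beside 360 min in both. SECISBP2L-209 went from 2.74% to 99.0%, SNAI2-202 from 0.180% to 95.5% and MRPS2-201 from 97.5% to 3.13%. The shares are estimates by the authors' quantifier from reads that several transcripts share, and how far such estimates vary between replicates was not tested.

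**Figure D5:**
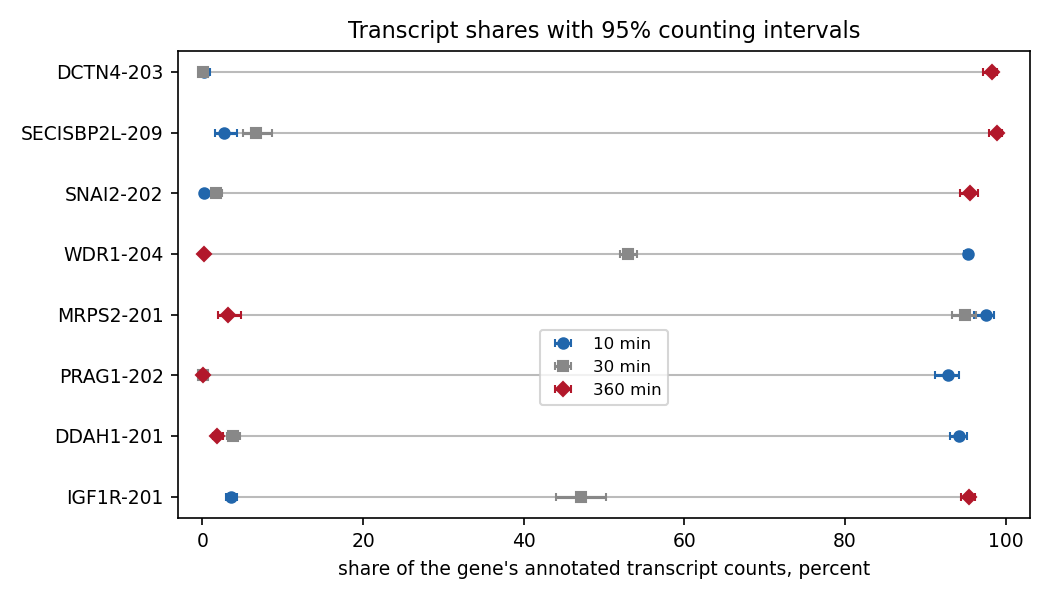
Each row is a transcript, the x axis gives its share in percent of the counts of the gene's annotated transcripts, and bars are 95% binomial (Clopper-Pearson) intervals of counting error. The 10 and 360 min points lie over 90 points apart in each row, and the 30 min point lies beside the 10 min point, beside the 360 min point or between them.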

How the data were processed

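Poly(A) RNA was sequenced from AC16 cells, with 1 library per time. HISAT2, DESeq2 and the GRCh38 build are named without versions in the submitters' processing notes. Which tool counted, with which annotation and whether by strand is not given in the sources used here. Estimated counts were deposited by the authors for loci and for transcripts, as whole numbers neither scaled nor length-corrected.

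Of all counts, 99.7% lie in loci with only an assembly identifier, and 11.1% lie in transcript models made by the assembly. Loci were named by matching counts: with assembled models subtracted, a locus had to equal the summed annotated transcripts of a gene in GENCODE 29, with at least 20 counts in all, or of a run of up to 6 neighbouring genes of which 1 held at least 95%. GENCODE 29 held 91.4% of the annotated transcript identifiers. Exact matches to 1 gene named 15289 loci and dominant genes another 703, and named loci hold 87.5% of counts. Of neighbouring named loci, 99.6% lay on 1 chromosome. Of 6127 low values from 1 to 24, 30.5% were multiples of 4, so most were not. Values of 1, 2, 3 and 4 numbered 107, 198, 249 and 445. On this limited sign, 4 deposited counts were assumed to be about 1 read pair in intervals and floors. Undivided counts gave the same 852 higher and 851 lower loci. Under that assumption the libraries at 10 and 360 min hold 13899178 and 13789153 read pairs. Reads carry no molecular identifiers in the labels, so intervals cover counting error only.

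Counts were scaled to CPM with TMM factors over the 4 libraries (1.03, 0.988 and 0.990 at 10, 30 and 360 min) from edgeR 4.0.16 in R 4.3.3. Ratios have 95% exact conditional binomial (Clopper-Pearson) intervals from SciPy 1.17.1, and 0 counts were replaced by a floor of 12 counts, worth 3 read pairs. No test by edgeR or DESeq2 was run, for lack of replicates. The code of the size rule was run on simulated libraries that had counting error only and set changes larger than the rule. That run cannot show how the rule fares with spread between libraries. The named genes are the 12 higher and 12 lower loci with at least 10 CPM that also pass as summed transcripts, taken in order of the interval end closer to 1, then from each list at most 4 members of at least 5 CPM with the largest absolute log2 ratio, 9 genes always named, and 8 genes for transcript shares. Other members are named after their values were seen. A few genes that meet the rule are not reported here. An overlap of at least 10% of exon bases with another gene makes a value uncertain.

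The comparison, the 39 gene lists (778 genes), the motifs and the promoters shown were chosen with earlier results of these data known. Of the list genes, 614 had a RefSeq promoter. Alternatives were scaling to total counts or by DESeq2 1.42.0 median-of-ratios factors, undivided counts, summed annotated transcripts, other filters and folds, and the 30 min library in place of that at 10 min.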

Additional observations from a re-analysis of the deposited data

How the results depend on the processing

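Each time has 1 library, so no interval here covers variation between cultures, and leaving out a replicate was not possible. No paired analysis was possible because each time has 1 library. The counts of higher and lower loci, 852 and 851, were 135 and 179 with the 30 min library in place of that at 10 min, 1740 and 2799 with no filter on low values, 2304 and 1891 at a fold of 1.5, and 202 and 283 at a fold of 3. Raising the floor to 20 CPM, reached at 10 or 360 min, left 8623 loci, of which 637 were higher and 359 lower. The near-equal counts of higher and lower loci thus did not hold under that stricter floor. Scaling by total counts, median-of-ratios scaling, undivided counts and summed transcripts kept both counts within 1.5 times. The 2 alternatives added after seeing the data took the same calls in a subset of the loci, so their counts could only fall. Of 8944 loci with the same leading model, 597 were higher and 607 lower. Of 9166 named loci with under 10% shared exon bases, 632 were higher and 612 lower. With the 30 min library in place of that at 10 min, list medians (log2) changed sign for importins, exportins and tRNA synthetases (-0.0701), NF-kB and cytokine genes (-0.41), TXNIP and arrestins (0.0681), matrix markers (0.0921) and immune markers (0.62). Among named genes past the size rule against 10 min, some changed sign in that comparison, in log2. These were LINC01224 (-0.12), RTKN2 (-0.0918), TXNIP (0.10), ITGAX (0.0046), TYMS (-0.0239), TK1 (-0.13), KIF11 (-0.0457) and LTBP2 (0.39). The others were KEAP1 (-0.26), BMF (0.0090), H2AC6 (0.12), H2AZ1 (-0.28), NKX2-5 (-0.25), COL1A2 (0.0104) and CD3D (0.39). The cause was not tested. Named genes short of the rule were not counted, and some of them, such as MDM2 (ratio 0.723) and AEN (0.943), also fell below 1 against 30 min. A median under 0.25 from 0 was not counted as changing sign, a limit set after the medians were seen. No list median or named gene counted this way changed sign under the other settings run. Of 39 list medians, 22 others moved by over 0.25 with the 30 min library, and 0 did with scaling by total counts.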
